A study of Mus musculus with 6 samples.

Results

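The 10 synaptotagmin genes Syt1, Syt2, Syt3, Syt4, Syt5, Syt6, Syt7, Syt9, Syt10 and Syt11 were examined in striatal RNA-seq data from Shank3 TG and WT mice. They were taken by symbol from the 46078 genes of the deposited table, after its Ensembl identifiers were matched to GENCODE M21, and all 10 were found. All 10 also passed the filter of a mean of at least 10 normalized read counts, as did 17605 genes in total. The TG group was 3 male C57BL/6J mice aged 12 weeks that carried an EGFP-Shank3 transgene and overexpressed Shank3, a scaffold protein of the excitatory postsynapse. The WT group was 3 male C57BL/6J mice of the same age without the transgene. Both genotypes were of the same strain, each mouse gave 1 library of dissected striatum, and the promoter that drove the transgene is not given in the sources used here. No synaptotagmin passed the test of a difference between the genotypes. The data also hold the relative levels of these 10 genes in this tissue. Syt1 and Syt11 made up 61.85% of the summed level per kb of exon of the 10, a sum that leaves out the other synaptotagmins.

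Synaptotagmins are membrane proteins of vesicles and of the plasma membrane with a pair of cytoplasmic C2 domains. In most members, acidic residues in the loops of the C2 domains bind calcium, and the domains then engage phospholipids and SNARE proteins, the proteins that drive membrane fusion. Syt1, Syt2 and the protein named Syt5 in the mouse annotation serve fast transmitter release. Syt7 has a high affinity for calcium and slow kinetics, and takes part in asynchronous release, facilitation and vesicle replenishment. Syt3, Syt6, Syt9 and Syt10 form a group that dimerizes through cysteines near the N-terminus, with roles on the plasma membrane and on dense-core vesicles. Syt4 and Syt11 lack full calcium binding and act in vesicle trafficking and on secretory organelles. The striatum consists mainly of GABAergic medium spiny neurons, and it receives glutamatergic axons whose cell bodies, and hence most of whose mRNA, lie outside the dissected tissue.

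The feature that separates Syt4 and Syt11 from the other members can be read in the transcripts. The following 30-base stretches, from single coding exons of GENCODE M21 transcripts (GRCm38, given 5′ to 3′ along the mRNA), encode the calcium-binding loop of the first C2 domain for a member of each role group. The capitals mark the codon that aligns with codon 230 of Syt1.
Syt1, chr10:108627352-108627381, minus strand: gctgtgtatGATtttgaccgcttctccaag
Syt5, chr7:4542290-4542319, minus strand: gcggtgtatGACtttgatcggttctcccgc
Syt6, chr3:103587666-103587695, plus strand: agtgtctttGACtttgaccgcttctcccgc
Syt7, chr19:10442869-10442898, plus strand: caggtcctgGATtatgaccgtttcagccgc
Syt11, chr3:88761825-88761854, minus strand: ctggtgctcAGCtttgatcgattctctcgg
The marked codon encodes aspartate in 8 of the 10 members, and it encodes serine in Syt11 (codon 247) and Syt4 (codon 244). Identity was taken over the aligned residues of the translated coding sequences, with gaps left out, so the length compared differed between pairs. Identity on this measure placed Syt4 with Syt11 and divided the other members further, as in the role groups above. Identity was 78.9% between Syt1 and Syt2, 58.8% between Syt1 and Syt5, and 56.2% between Syt4 and Syt11. Among Syt3, Syt6, Syt9 and Syt10 it lay between 51.2% and 66.8%, with the highest value for Syt6 and Syt10. The highest identity between members of different groups was 46.6%, for Syt1 and Syt6. The names Syt5 and Syt9 have been exchanged between these proteins in the literature, and here Syt5 fell with Syt1 and Syt2 while Syt9 fell with Syt3, Syt6 and Syt10.

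Reads of related members could in principle be assigned to the wrong gene. The longest identical stretch was taken for each pair of members, in the direction of the mRNA. Of those in coding sequence the longest was 26 bases, shared by Syt1 (chr10:108583888-108583913, minus strand) and Syt2 (chr1:134745808-134745833, plus strand).
Syt1 and Syt2, all bases shared: gccaagaacctgaagaagatggatgt
Syt1 and Syt5 shared at most 25 bases and Syt2 and Syt5 at most 23, all shorter than a full-length read. Outside the coding sequence the longest shared stretch was a 36-base TG repeat in Syt2 and Syt7, and a shorter coding stretch of this pair was not looked for. No full-length read could therefore match 2 members along its whole length in the direction of the mRNA. Matches between opposite strands of members were not searched. The reads had also been trimmed, and a read trimmed to 36 bases within that repeat could match both Syt2 and Syt7. Some reads could match a gene of another family. In Syt4, 7.02% of the read-length windows of the transcripts also occurred in the antisense gene Gm26658, which shares 566 exonic bases with it. In Syt6 the share was 6.47%, with Atg4a-ps on the opposite strand (505 shared exonic bases) and Atg4a, and in Syt7 it was 3.41%, with the antisense gene Gm26859 (384 shared exonic bases). The library kit did not mark the strand, so reads of these overlaps cannot be assigned to either gene. The overlapping genes were counted at means of 11.7 for Gm26658, 2.81 for Atg4a-ps and 2.87 for Gm26859, far below the members. Because reads of the shared bases cannot be assigned, these means do not show how many there were. In Syt11, 2.27% of windows (119 of 5253) occurred in other genes, and in the other 6 members none did.

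The recovered read totals lay between 27689589 and 36647626 per library. Shank3, the overexpressed gene, was counted at 29891, 28309 and 26044 in TG 1, 2 and 3 and at 13807, 12918 and 13865 in WT 1, 2 and 3. The difference was 2.07-fold (log2 fold change 1.05, SE 0.06, adjusted p = 7.04e-05, limma), and Shank3 alone was called among all genes tested (0.00568%). The medium spiny neuron markers Ppp1r1b, Drd1 and Drd2 were present in every library, as the labelled tissue requires. The 11 markers of this cell type summed to between 142602 and 198116 in TG and between 171378 and 198575 in WT, and 10 of the 11 had a lower mean in TG. TG 1 stood apart. It held the lowest medium spiny neuron sum, the highest cortical excitatory neuron sum and a choroid plexus sum of 15189, against 1834 in TG 2, 620 in TG 3 and 525 to 872 in WT. Of 6 choroid plexus markers tested, 6 had a log2 fold change above 0, against 49.2% of all genes. In limma 3 were higher at an unadjusted p under 0.05, against 1.98% of all genes. Clic6 and Sostdc1, named after their values were seen, did not overlap between the groups, against 10.1% of all genes. A DESeq2 fit with a prior and an empirical null called both (adjusted p = 0.0094 and 0.014), against 0.0852% of all genes. In bulk tissue, fewer cells of a type and less RNA per cell cannot be told apart.

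Levels were compared between members as normalized read counts per kb of exon, with the union of all annotated exons of a gene as its length. Over the 6 libraries Syt1 was the most abundant member, at 5242 ± 284 counts per kb (SD, n = 6), and Syt11 followed at 4842 ± 129. The ranges of these neighbours overlapped, although Syt1 was above Syt11 in each of the 6 libraries. Both stood near the top of the transcriptome, Syt1 at percentile 99.2 and Syt11 at percentile 99.1 of the genes tested. Syt5 came next at 1928 ± 44.0 counts per kb, 2.51-fold below Syt11, with a range that overlapped no other. Syt7, at 1351 ± 100.3, and Syt4, at 1153 ± 68.9, had overlapping ranges, and Syt7 was the higher in 5 of 6 libraries. Syt6 (697 ± 41.4), Syt3 (547 ± 15.6) and Syt2 (276 ± 31.6) followed with ranges that overlapped neither each other nor those of their neighbours. Syt10 (146 ± 19.7) and Syt9 (117 ± 10.3) were lowest of the 10, with overlapping ranges and near the middle of the genes tested at percentiles 54.3 and 49.3. The most abundant and the least abundant member thus both belonged to groups with a calcium-binding aspartate in the loop shown above.

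As shares of the summed family level per kb, taken over the 10 members only, Syt1 held 32.1% ± 0.918 (SD, n = 6) and Syt11 29.7% ± 0.591. Among synaptotagmins outside this sum, Syt13 had 1320 counts per kb, above the mean of Syt4, and Syt14 had 78.3, below that of Syt9. Syt5 held 11.8%, Syt7 8.29%, Syt4 7.08%, Syt6 4.28% and Syt3 3.36%. Syt2, Syt10 and Syt9 held 1.69%, 0.896% and 0.717%. The closest relative of the leading member was therefore minor. Syt2, which replaces Syt1 at many fast synapses of the hindbrain and spinal cord, was the third lowest of the 10 in striatum by this measure. These shares depend on the length used. With the longest transcript of each gene Syt1 held 42.1% and Syt11 23.3%, and with the coding length 48.6% and 27.5%. The order from Syt1 to Syt9 was the same with the longest transcript. With the coding length Syt1 and Syt11 still led, but Syt5 fell behind Syt7 and Syt4 at 4.44%, Syt2 passed Syt3, and Syt10 was last. A statement on the rank of Syt5 therefore rests on the length chosen.

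**Figure D1:**
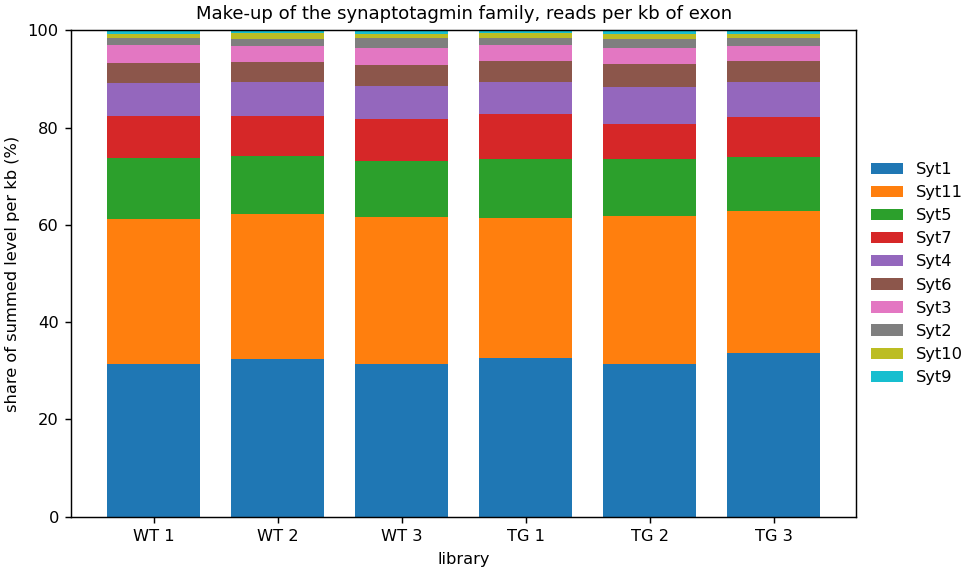
Stacked bars give each synaptotagmin's share, in percent, of the summed level of the 10 genes (normalized read counts per kb of exon) in the 3 WT and 3 TG libraries. Syt1 and Syt11 fill between 61.2% and 62.9% of every bar, and no share separates the genotypes.

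In the following, the position of each gene is that of GENCODE M21 on GRCm38. Syt1 (chr10:108497650-109010982, minus strand) was counted at 44158, 42317 and 48011 in TG 1, 2 and 3 and at 41219, 43907 and 42645 in WT 1, 2 and 3. TG 3 was the highest library and WT 1 the lowest, and the groups overlapped. The log2 fold change of Syt1 was 0.07 (SE 0.06), with a 95% interval of the fold from 0.957 to 1.15 (adjusted p = 0.971, limma). It was 0.02 without TG 3 and 0.11 without TG 2. Syt2 (chr1:134646677-134762593, plus strand) was counted at 1917, 2247 and 2158 in TG and at 1906, 1923 and 2505 in WT. Its single high library was WT 3, while WT 1 and WT 2 lay beside TG 1, the lowest TG library. The log2 fold change of Syt2 was 0.01 (SE 0.10), and it was below 0 in DESeq2 and edgeR fits of the recovered reads, so no direction can be given for it. Syt5 (chr7:4539765-4547541, minus strand) was counted at 4706, 4449 and 4547 in TG and at 4688, 4642 and 4504 in WT. These 6 values were among the tightest of the family, with an SD of 0.04 on the log2 scale within the groups. The log2 fold change of Syt5 was -0.01 (SE 0.04) and its fold lay between 0.925 and 1.06 at 95% confidence.

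Syt7 (chr19:10389090-10453180, plus strand), the slow, high-affinity sensor, varied more. It was counted at 11031, 8813 and 10496 in TG and at 10138, 9851 and 10382 in WT. TG mice held both the highest library, TG 1, and the lowest, TG 2, while the WT libraries lay between them. Accordingly the group means were 10113 ± 1157 in TG and 10124 ± 266 in WT (SD, n = 3 each), with a log2 fold change of -0.01 (SE 0.07). Without TG 2 this log2 fold change became 0.09, which was not called either.

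The group of Syt3, Syt6, Syt9 and Syt10 included both of the lowest members. Syt6 (chr3:103575231-103645569, plus strand) was counted at 4035, 4396 and 4172 in TG and at 3755, 3821 and 4185 in WT. All 3 TG libraries were above the WT mean of 3921, but WT 3 lay within the TG range. Syt6 had the smallest unadjusted p of the family, 0.0983 in limma, with a log2 fold change of 0.10 (SE 0.06), an adjusted p of 0.971 and an exact permutation p of 0.3. Syt3 (chr7:44384102-44400187, plus strand) was counted at 1639, 1688 and 1706 in TG and at 1743, 1684 and 1778 in WT. The only WT library within the TG range was WT 2, and the TG mean was lower by 0.05 on the log2 scale (log2 fold change -0.05, SE 0.05). Syt9 (chr7:107370728-107548656, plus strand) was counted at 429, 453 and 457 in TG and at 512, 420 and 516 in WT. WT held both extremes here, with WT 2 below every TG library. The log2 fold change of Syt9 was the lowest of the family at -0.11 (SE 0.09), and it was -0.20 without WT 2 and -0.06 without WT 3. Syt10 (chr15:89782393-89841860, minus strand), known in olfactory bulb neurons for the secretion of IGF-1, was counted at 261, 302 and 274 in TG and at 214, 314 and 251 in WT. Both extremes again were WT libraries. Its log2 fold change was the highest of the family, 0.12 (SE 0.13), and also the least precise, with a fold between 0.884 and 1.33 at 95% confidence. Syt10 rested on 187 to 336 reads per library, so counting alone gave an error of 7.31% in the shallowest library, compared with 0.527% for Syt1.

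Of the members without the aspartate codon, Syt11 was the more abundant. Syt11 (chr3:88744700-88775164, minus strand) was counted at 24346, 25495 and 26100 in TG and at 24562, 25051 and 25659 in WT. The TG libraries enclosed the WT libraries, and the log2 fold change was 0.01 (SE 0.05; fold between 0.935 and 1.09 at 95% confidence). Syt4 (chr18:31437808-31447406, minus strand), which is induced by neuronal activity, was counted at 4240, 4805 and 4839 in TG and at 4279, 4455 and 4317 in WT. TG 2 and TG 3 were above every WT library, and TG 1, the library with the highest choroid plexus sum, was below every WT library. The log2 fold change of Syt4 was 0.09 (SE 0.06), with an adjusted p of 0.971 in limma. Without TG 1 it was 0.15, below the unadjusted threshold of 0.05 but with an adjusted p of 0.658 in limma. The part of the tissue markers of TG 1 in this value was not tested.

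**Figure D2:**
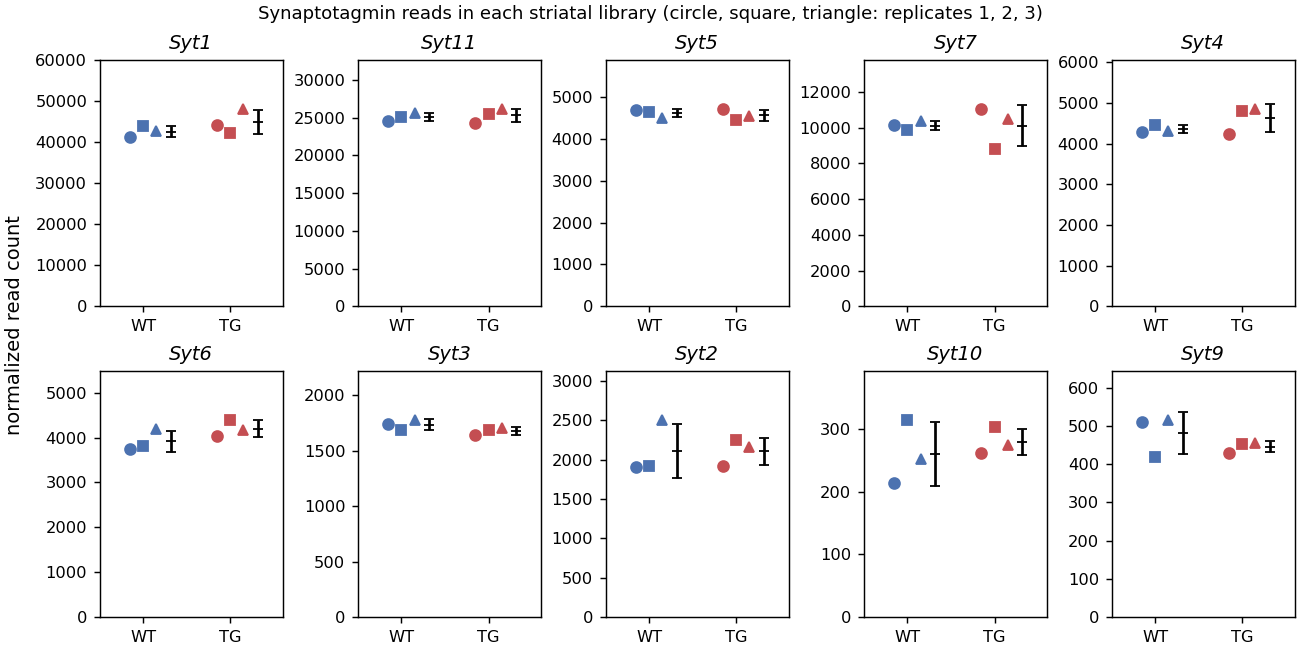
Each panel shows 1 synaptotagmin as normalized read counts on an axis from 0, with a point per mouse (WT blue, TG red; circle, square and triangle for replicates 1, 2 and 3) and a bar for the mean ± SD of 3. In every panel the TG and WT points overlap, and the widest relative spread is that of Syt10, from 214 to 314.

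Of the 10 synaptotagmins 0 were called in limma at an adjusted p under 0.05, against 0.00568% of all genes tested. At an unadjusted p under 0.05 there were also 0, against 4.31% of all genes (1.98% higher in TG and 2.33% lower). By DESeq2, 0 members were called against 0.0398% of all genes, and with a prior and an empirical null 0 against 0.0852%. By edgeR and limma-voom 0 members were called, each of which called the same share of all genes as limma. In 0 of the 10 did the TG and WT libraries fall apart without overlap, against 10.1% of all genes (5.06% higher in TG and 5.05% lower). The adjusted p lay between 0.971 and 0.997. The TG mean was higher in 6 members and lower in 4, and a log2 fold change above 0 was found for 49.2% of all genes. The difference exceeded the SD within the groups in 3 members, Syt3, Syt4 and Syt6. The two-sided exact permutation test of each member over the 6 libraries gave p values of at least 0.3, where 3 against 3 mice cannot give less than 0.1. These p values do not show that the levels were equal. The 95% intervals, which carry that information, kept the fold of the 9 members other than Syt10 between 0.808 and 1.17.

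**Figure D3:**
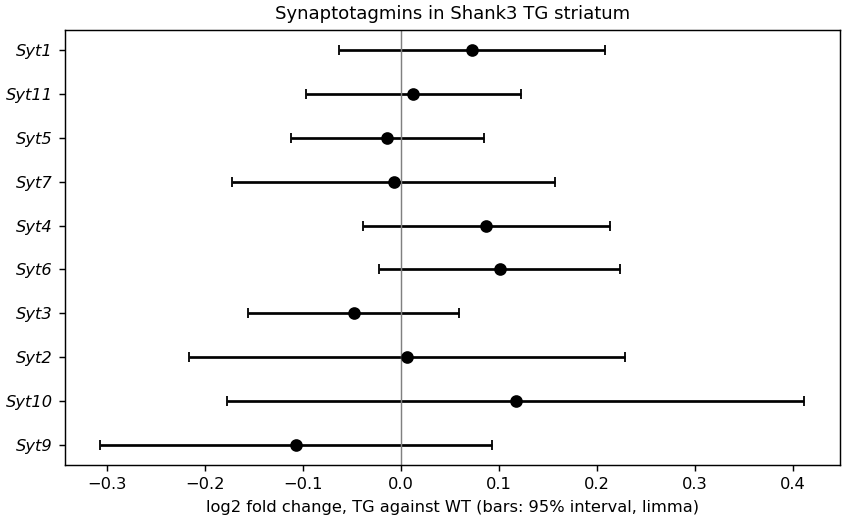
Points give the log2 fold change, TG against WT, of each synaptotagmin in order of its level per kb, and bars its 95% interval from limma (3 mice per genotype). All 10 intervals include 0. The narrowest is that of Syt5, from -0.11 to 0.08, and the widest are those of Syt2, Syt9 and Syt10, up to -0.18 to 0.41 for Syt10.

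The make-up of the family was compared between the genotypes as a description. The summed family level was 16497 ± 557 counts per kb in TG and 16104 ± 282 in WT (SD, n = 3 each), a log2 ratio of 0.03. The 10 genes took between 0.294% and 0.326% of all normalized counts. Syt1, Syt2 and Syt5 together held 45.9% ± 0.854 of the family level in TG and 45.5% ± 0.556 in WT. Syt4 and Syt11 together held 36.7% ± 1.27 in TG and 36.9% ± 0.134 in WT. Syt3, Syt6, Syt9 and Syt10 held 9.23% ± 0.459 and 9.26% ± 0.237, and Syt7 held 8.19% ± 0.888 and 8.40% ± 0.248. The shares of each of the 10 members overlapped between the groups. Because the members were chosen by name with results of these data known, these sums are given without a test.

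Mice of the same genotype differed from each other, and for some members this ran beside markers of certain cells. Syt7 deviated from its 6-library mean by -0.20 in TG 2 and by 0.13 in TG 1 on the log2 scale. Slc17a7, the vesicular glutamate transporter of cortical excitatory neurons, deviated by -0.36 in TG 2 and by 0.20 in TG 1. In WT 3, however, Syt7 was above its mean by 0.04 while Slc17a7 deviated by -0.12, its second lowest value. The 7 cortical excitatory markers together summed to 27054 in TG 2, the lowest library, and to 38482 in TG 1, the highest. Syt2 deviated by 0.26 in WT 3, its highest library, where Pvalb, the marker of the fast-spiking interneurons, deviated by 0.23. In TG 3, however, Pvalb deviated by 0.20 and Syt2 by 0.04, and the 5 parvalbumin interneuron markers summed to between 11016 and 11986 over all libraries. Of the other markers in this list, Kcnc1 was also highest in WT 3, at 6119, and Lhx6 lay between its extremes. Erbb4, however, was lowest in WT 3, at 2140, and Kcnc2, at 1839, exceeded only TG 2, at 1771. Syt10 deviated by -0.32 in WT 1 and by 0.23 in WT 2, and none of the 6 neuronal markers plotted with it had its lowest value in WT 1 or its highest in WT 2. Syt5, Syt11 and Syt3 stayed within 0.06 of their means in every library, while Drd1 moved from -0.41 in TG 1 to 0.23 in TG 2. The part of the cell type markers in the values of Syt7 and Syt2 was not tested. No marker of the 9 lists was at 0 in every library. Of the remaining lists, the sum over all libraries ran from 1023 to 1493 for thalamus and pallidum (6 markers), from 22081 to 27615 for astrocytes (4) and from 4095 to 4956 for endothelium (3). The sums of 2 of the 9 lists did not overlap between the genotypes. Among all genes tested, the values of 10.1% did not overlap, and 49.2% had a log2 fold change above 0. The sums of the 4 microglia markers lay between 6953 and 7601 in TG and between 7652 and 7887 in WT. Of these markers, 4 of 4 had a lower mean in TG. The sums of the 4 oligodendrocyte markers lay between 185492 and 188619 in TG and between 188920 and 213371 in WT. Of these, 3 of 4 had a lower mean in TG. None of the microglia or oligodendrocyte markers was called, and their part in the values of the synaptotagmins was not tested.

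**Figure D4:**
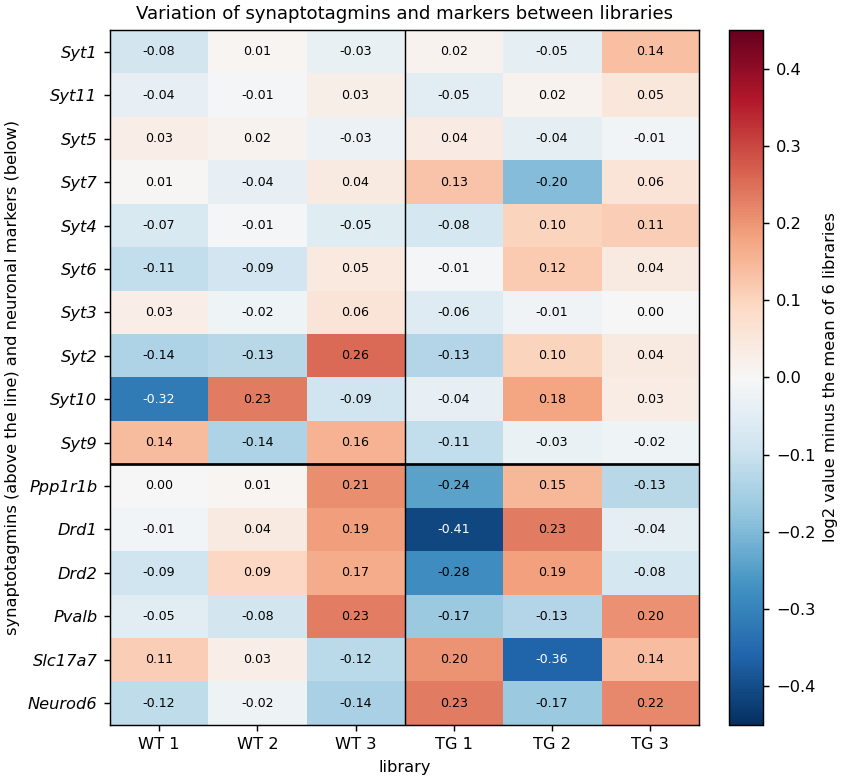
Colors and printed values give the deviation of each gene's log2 value from its mean over the 6 libraries, with synaptotagmins above the line and neuronal markers below it, and WT libraries to the left of TG libraries. Syt7 and Slc17a7 share their lowest library, TG 2, which is also the lowest of Syt5 and Neurod6. Syt5, Syt11 and Syt3 are pale in every library.

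The genes whose pattern over the 6 libraries was most like that of a member were listed for Syt1 and for Syt10, the member with the largest SD over the libraries. For Syt1 they were Tmem74, Raph1, Pcsk5, Prkaa2 and Cers4, with Pearson correlations of 0.988, 0.987, 0.978, 0.977 and 0.975 of the log2 values. For Syt10 they were Srr, Ncam1, Cacna1e, Zbtb6 and Cdyl2, with 0.989, 0.983, 0.983, 0.975 and 0.974. These describe 6 libraries that share their depth and scaling between genes, and they were the highest among 12832 genes with a mean of at least 100. A correlation of at least 0.9 was reached by 84 genes with Syt1 and by 102 with Syt10, so that the leading genes had many near neighbours.

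The proteins with which synaptotagmins work were examined in the same fit. Of 79 partner genes in 6 lists, 77 passed the filter, Syt8 and Sytl3 being under it. Of these 77, 0 were called, against 0.00568% of all genes tested. In the SNARE proteins and complexins, the fusion machinery that Syt1 acts on, 10 of 15 genes were higher in TG and 5 lower, with a median log2 fold change of 0.05 against 0.00 over all genes tested and 0.01 over the 10 synaptotagmins. Snap25, a SNARE protein of the plasma membrane, had a level of 9637 counts per kb, above that of Syt1, and a log2 fold change of 0.06 (SE 0.08). Vamp2, the vesicular SNARE protein, had a log2 fold change of -0.01 (SE 0.06). Cplx2, a complexin that clamps and promotes Syt1-triggered fusion, was counted at 48804, 50932 and 48924 in TG and at 53032, 53989 and 51094 in WT. Its groups did not overlap, but its log2 fold change of -0.09 (SE 0.05) had an adjusted p of 0.971. Stxbp5, or tomosyn, which withholds SNARE proteins from fusion and binds Syt1, was counted at 4042, 4268 and 4542 in TG and at 3761, 3919 and 3987 in WT. Of the 77 partner genes tested, Stxbp5 alone had an unadjusted p under 0.05 in limma, against 4.31% of all genes tested. Its log2 fold change was 0.14 (SE 0.05, adjusted p = 0.971 in limma). Its exact permutation p was 0.1, the smallest that 3 against 3 can give.

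In the active zone and priming proteins 8 of 16 genes were higher and 8 lower, with a median of 0.01. The priming factor Unc13a and the scaffolds Bsn and Pclo had log2 fold changes of -0.07 (SE 0.06), -0.08 (SE 0.07) and 0.08 (SE 0.06). In the synaptic vesicle proteins 11 of 16 were higher and 5 lower, with a median of 0.03. Slc17a7, Syn1 and Syp had log2 fold changes of -0.01 (SE 0.13), 0.02 (SE 0.09) and 0.03 (SE 0.07). Of the proteins that retrieve synaptotagmin and other vesicle proteins from the plasma membrane, 9 of 13 were higher and 4 lower, with a median of 0.03. The GTPase Dnm1 and the adaptor subunits Ap2m1 and Ap2b1 had log2 fold changes of 0.05 (SE 0.07), 0.02 (SE 0.05) and 0.09 (SE 0.05). The groups did not overlap in 6 of the 77 partner genes, against 10.1% of all genes. Beside Cplx2 and Stxbp5 these were Vamp4, Erc2, Ap2b1 and Synj1, of which Vamp4, Erc2 and Synj1 are named after their values were seen, and all 5 other than Cplx2 were higher in TG.

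The relatives of the 10 members were no exception, and 0 of them were called, against 0.00568% of all genes tested. Of 6 further synaptotagmins tested, 3 were higher and 3 lower, with a median of -0.01. Syt13, which lacks calcium-binding residues, was the most abundant of them at 1320 counts per kb, close to the level of Syt7, with a log2 fold change of 0.07 (SE 0.11). Syt16 and Syt12 had log2 fold changes of 0.01 (SE 0.06) and 0.00 (SE 0.06). Of the other proteins with C2 domains in tandem, among them the extended synaptotagmins with more than a pair, 5 of 11 were higher and 6 lower, with a median of -0.01. Rph3a (rabphilin), a Rab3 effector, led them at 3171 counts per kb, with a log2 fold change of 0.05 (SE 0.08). Doc2b, a high-affinity calcium sensor of spontaneous release, and Sytl2 had log2 fold changes of -0.05 (SE 0.08) and -0.03 (SE 0.08).

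**Figure D5:**
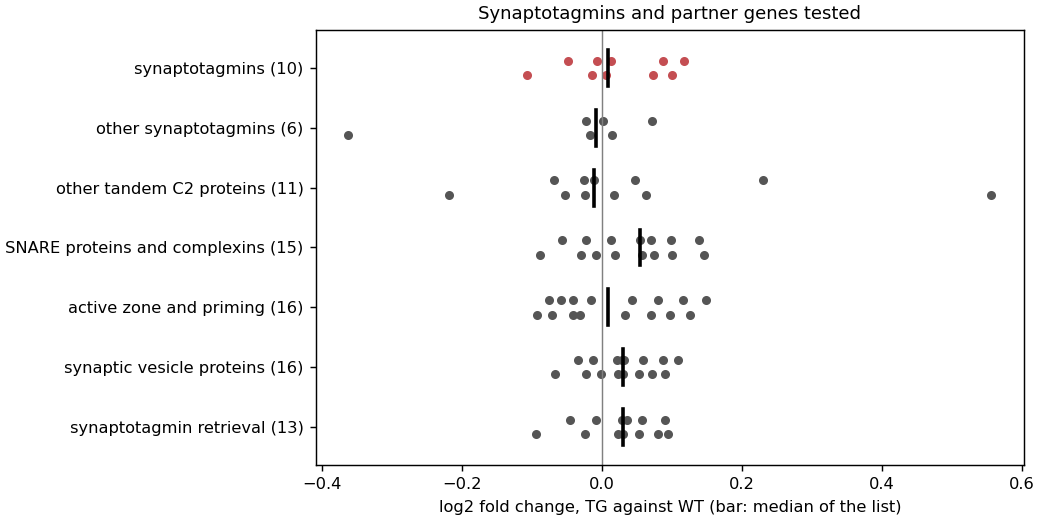
Points give the log2 fold change, TG against WT, of the 10 synaptotagmins (red) and of the tested genes of 6 partner lists (grey), and vertical bars give the median of each list. The medians lie between -0.01 and 0.05, and the outlying points belong to low genes of the tandem C2 and further synaptotagmin lists.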

How the data were processed

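Striatal RNA of 6 mice was sequenced as paired-end reads from libraries of a kit that does not mark strand. Per the submitters' processing notes, the authors used Trimmomatic 0.35, TopHat2 2.1.0, HTSeq, DESeq2 and the build GRCm38. Whether HTSeq used strand, and with which annotation release, is not given in the sources used here. The deposited values are a signal, each gene's read count over the library's DESeq2 size factor. Dividing by the smallest value above 0 gave whole reads for 100% of values (within 0.01), between 27689589 and 36647626 per library. With paired ends, 1 count may be 1 fragment. The counting error given covers counting only.

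Groups followed the labels, and no library was left out. Of 46078 identifiers 45229 were matched to GENCODE M21. TG was compared with WT with limma 3.58.1 (R 4.3.3, with its trend option) on log2(value + 1). The fit took in 17605 genes whose mean reached 10, and p values were adjusted after Benjamini-Hochberg (threshold 0.05). A fold change on this scale understates that of low genes. The authors' own comparison used DESeq2. On the recovered reads, edgeR 4.0.16 (quasi-likelihood) called 1 gene and DESeq2 1.42.0 called 7. Limma was tested on simulated data with larger differences than those of the members, so that test does not measure its power for them. Standard errors, intervals and unadjusted p values of single genes come from the same limma fit.

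The members and the lists of partner and marker genes were chosen with earlier results of these data known. Named were all members, Shank3, genes overlapping a member, the 3 most abundant genes of each partner list and those at an unadjusted p under 0.05, the defining markers, and the 5 genes most correlated with Syt1 and with the most variable member. Exon lengths and sequences came from GENCODE M21, and coding sequences were taken as the longest open reading frame of a protein-coding transcript. Alternatives were pseudocounts of 0.5 and 5, no filter, a mean of at least 50, TMM, library totals, edgeR, DESeq2, DESeq2 with a prior and an empirical null, limma-voom, the replicate block, each library left out and other lengths.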

Additional observations from a re-analysis of the deposited data

How the results depend on the processing

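Under all 17 alternatives 0 synaptotagmins were called, with adjusted p values between 0.658 and 1. Of 170 member values under the alternatives, 157 kept their direction and 13 reversed. The log2 fold change of Syt2 was -0.00272 in DESeq2 with a prior, -0.00464 in DESeq2 and -0.00626 in edgeR. With single libraries left out it lay between -0.062 and 0.135, that of Syt5 between -0.036 and 0.0049, of Syt7 between -0.074 and 0.088, of Syt10 between -0.013 and 0.26, and of Syt11 between -0.010 and 0.040. Syt1 (0.022 to 0.113), Syt3 (-0.070 to -0.031), Syt4 (0.053 to 0.149), Syt6 (0.067 to 0.148) and Syt9 (-0.204 to -0.055) kept their direction. The cause was not tested. The count of members at an unadjusted p under 0.05, 0 in all libraries, lay between 0 and 2 with a library left out. Without TG 1 these were Syt4 and Syt6 (limma, adjusted p = 0.658 for both), without WT 2 Syt9 (adjusted p = 0.990) and without WT 3 Syt6 (adjusted p = 0.997). The count over all genes, 1, was 15 in DESeq2 with a prior and an empirical null, 7 in DESeq2, 5 without a filter, and between 1 and 2 with a library left out. The share of Syt1 and Syt11 was 65.4% with the longest transcript and 76.09% with the coding length, against 61.85%. The log2 ratio of the summed family level lay between 0.0066 and 0.051 with a library left out.

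The deviations of mice with the same replicate number correlated at 0.047, 0.016 and 0.093, and those of the other pairs at between -0.125 and 0.077. TG 1 correlated best with WT 2, and TG 2 and TG 3 both did so with WT 3. Deviations from a mean of 3 are tied to each other. These values therefore cannot show whether the number marks a pairing. With the replicate number as a block, 0 synaptotagmins and 1 gene were called. Depth limits mainly Syt10 and Syt9, with 187 to 336 and 403 to 526 reads per library. With 3 mice per genotype and 1 library each, the spread within a group holds both animal and dissection differences.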
